A study of Mus musculus with 24 samples.

Results

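The small leucine-rich proteoglycans are secreted proteins built from leucine-rich repeats, and the 8 members described here are Lum, Dcn, Bgn, Fmod, Ogn, Omd, Prelp and Aspn. They were chosen by symbol and matched to 8 of the 37310 genes of the deposited tables. The choice began with Lum, whose FPKM had been seen to be far lower in brown than in white cells on day 8, and the other 7 entered as its relatives. Day 8 values of Lum are therefore given as a description, without a test.

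The cells were stromal vascular cells, the mixed fraction that holds the precursors of fat cells, freed with collagenase from 2 depots of C57BL/6 mice aged 6 weeks. The white depot (WAT) was inguinal and the brown depot (BAT) interscapular. All groups were grown in the same adipogenic induction medium (insulin, dexamethasone and IBMX) and then in insulin with T3, and the medium held either EGCG, the catechin epigallocatechin gallate of green tea, or DMSO, the control. RNA was collected on day 4 and day 8. This gave 8 groups (WAT day 4 control, WAT day 4 EGCG, WAT day 8 control, WAT day 8 EGCG, and the same 4 for BAT) with 3 libraries each, 24 in all. No dose of EGCG and no number of mice per library were given, and nothing in the labels says whether replicates came from separate cultures, so p-values measure only the spread between these libraries.

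Values are FPKM, read counts divided by gene length and by library depth, so that levels of different genes can be set side by side. Replicates 1 and 2 (39452696 to 52893848 reads on genes per library) were in one table and replicate 3 (16392420 to 41675643 reads) in another that had been scaled separately. Tests used replicates 1 and 2, and replicate 3 is given as the third value of each group, for direction. The third library of WAT day 8 EGCG stood apart, with 61.0% of its reads on 5 genes against 3.64% to 10.5% in the others. As deposited, it was the lowest of its group for all 8 members. Its median-ratio scaling factor, the usual level of its genes relative to all libraries, was 0.410, against 1.105 and 1.097 for replicates 1 and 2. Rescaled to those 2 libraries, its Dcn value of 229 FPKM became 615 FPKM. The values of this library below are printed as deposited, and so are low for most genes. Among depot markers, Zic1 was 3.57 to 10.9 FPKM in BAT control and 0.0243 to 0.0665 FPKM in WAT control libraries of replicates 1 and 2, and Hoxc10 was at most 0.0582 FPKM in the BAT ones and at least 6.89 FPKM in the WAT ones. Lhx8 and Tbx15 separated the depots less. For Lhx8, control means of BAT against WAT were 29.8 against 18.4 FPKM (day 4) and 10.3 against 8.01 FPKM (day 8). For Tbx15 they were 21.7 against 36.7 FPKM (day 4) and 14.7 against 24.5 FPKM (day 8). With EGCG on day 8, mean Tbx15 was nearly level, 30.6 FPKM for BAT against 29.4 FPKM for WAT. Ucp1, the uncoupling protein of brown fat, was at 6.97, 6.15 and 4.20 FPKM in BAT day 8 control and had 0 reads in all 3 libraries of BAT day 8 EGCG.

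These proteins sit on the surface of collagen fibrils, where they limit how thick fibrils grow and how they are spaced. Most carry glycosaminoglycan chains, and several bind growth factors of the TGF-beta family. In fat they belong to the matrix laid down by stromal cells and precursors. Class I holds Dcn (decorin, which binds collagen and TGF-beta), Bgn (biglycan, which also acts as a ligand of Toll-like receptors) and Aspn (asporin, with an aspartate-rich end). Class II holds Lum (lumican, best known from the transparent cornea), Fmod (fibromodulin of tendon and cartilage), Prelp (a protein with a basic end that binds heparan sulfate) and Omd (osteomodulin of mineralised tissue). Ogn (osteoglycin, or mimecan) belongs to class III.

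The genes lie in groups, given here in the coordinates of mm9 with GENCODE vM1, the build of the tables. Dcn (ENSMUSG00000019929.8, chr10:96942245-96980777) and Lum (ENSMUSG00000036446.4, chr10:97028135-97035337) were neighbours 47.4 kb apart on the plus strand, followed by Kera, the gene of keratocan. Aspn (ENSMUSG00000021388.6, chr13:49639812-49662926), Omd (ENSMUSG00000048368.8, chr13:49678135-49687978) and Ogn (ENSMUSG00000021390.5, chr13:49703440-49719869) followed Ecm2 on the plus strand of chromosome 13, all within Cenpp on the opposite strand and without exon overlap. Prelp (ENSMUSG00000041577.5, chr1:135806881-135817991, minus strand) lay 115.8 kb before Fmod (ENSMUSG00000041559.7, chr1:135933831-135944854). Bgn (ENSMUSG00000031375.10) lay alone at chrX:70728941-70741272. All 8 were annotated as protein coding. An exon of Prelp overlapped the antisense gene Gm15851, and since no source used here says that strand was used in counting, reads of the pair cannot be told apart.

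The 250 bases before the start site were read from the RefSeq promoters of GRCm38.p6, a later build than that of the tables, and 6 of the 8 members matched (Bgn, Aspn, Fmod, Prelp, Omd and Ogn). Shown are the 3 neighbours on chromosome 13, which fell together with EGCG on day 4 in both depots as given below, and Bgn, the most abundant member. Capitals mark matches, on either strand, to TATAAA (in 12.37% of 32851 promoters), GGAATG (12.64%) and GGGCGG (32.74%); TGANTCA (6.749%) and TTGCNNAA (9.564%) were searched as well. The first base is the farthest from the start.
Aspn (chr13:49544193-49544442, plus strand): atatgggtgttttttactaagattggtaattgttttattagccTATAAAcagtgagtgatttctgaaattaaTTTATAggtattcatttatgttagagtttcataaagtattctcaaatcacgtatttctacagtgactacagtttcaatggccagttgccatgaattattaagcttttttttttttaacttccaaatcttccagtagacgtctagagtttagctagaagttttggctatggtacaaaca
Omd (chr13:49582212-49582461, plus strand): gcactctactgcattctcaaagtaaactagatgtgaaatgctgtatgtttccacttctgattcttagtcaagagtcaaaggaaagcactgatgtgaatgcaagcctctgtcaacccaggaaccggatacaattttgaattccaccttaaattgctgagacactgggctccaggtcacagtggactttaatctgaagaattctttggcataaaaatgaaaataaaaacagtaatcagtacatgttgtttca
Ogn (chr13:49607765-49608014, plus strand): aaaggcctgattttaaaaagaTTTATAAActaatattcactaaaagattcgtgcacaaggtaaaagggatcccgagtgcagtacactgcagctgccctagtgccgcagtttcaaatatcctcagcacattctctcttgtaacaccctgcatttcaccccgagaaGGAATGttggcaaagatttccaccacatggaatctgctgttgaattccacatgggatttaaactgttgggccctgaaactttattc
Bgn (chrX:73483351-73483600, plus strand): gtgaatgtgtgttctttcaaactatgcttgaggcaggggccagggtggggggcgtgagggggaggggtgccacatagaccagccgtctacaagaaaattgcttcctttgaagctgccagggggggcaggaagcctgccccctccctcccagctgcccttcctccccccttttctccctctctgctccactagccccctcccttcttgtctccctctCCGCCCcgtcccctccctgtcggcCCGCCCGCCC

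The windows differed in base composition, with 30% G and C in Aspn, 38.4% in Omd, 42% in Ogn and 64.4% in Bgn, against a median of 52.4% over all promoters. Aspn had TATAAA matches at 207 to 202 and 178 to 173 bases before the start. Ogn had an overlapping pair on opposite strands between 229 and 222 bases and a GGAATG match at 86 to 81 bases. Bgn had 3 GGGCGG matches on the reverse strand, at 34 to 29, 10 to 5 and 6 to 1 bases, the last pair overlapping, and Omd and Prelp had no match to any of the 5. Fmod had a TTGCNNAA match at 125 to 118 bases. A match describes letters only.

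**Figure D1:**
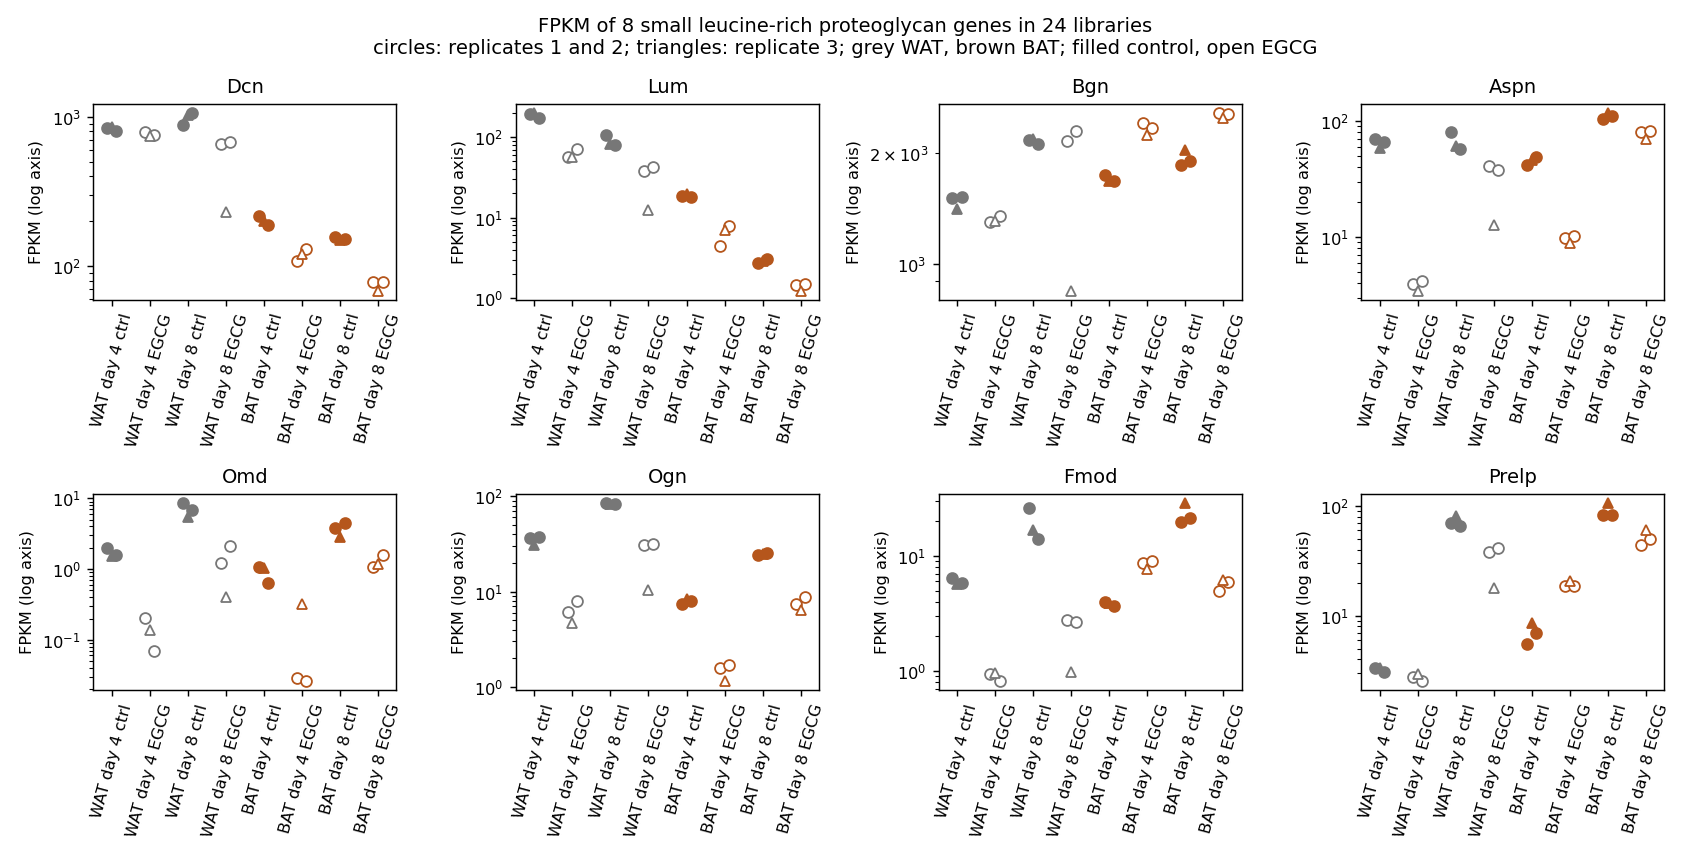
FPKM (log axis) of the 8 genes in each of the 24 libraries, by group; circles are replicates 1 and 2, triangles replicate 3, grey WAT, brown BAT, filled control and open EGCG. For Lum, Dcn and Ogn every BAT library lies below every WAT library of the same day and treatment, while Bgn spans 1297 to 2564 FPKM in replicates 1 and 2. The day 8 values of Lum led to its choice.

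The first comparison asked whether the relatives of Lum shared its lower level in BAT. Dcn and Ogn did so on both days and under both treatments, and none of the other 5 was called lower in all 4 comparisons. Lum was also lower in BAT on day 4, in libraries other than those named in the rule. Over all 14095 genes tested, 55.8% were called between depots in day 4 control cells (adjusted p under 0.05), 48.7% on day 4 with EGCG, 53.6% in day 8 control cells and 38.4% on day 8 with EGCG. In the same order, 41.4%, 32.9%, 31.6% and 24.4% were called higher in BAT and 14.4%, 15.8%, 22% and 14% lower. A call alone is thus common in these data. A call of at least 2-fold lower in BAT was made for 2.33%, 2.1%, 2.92% and 1.8% of genes in the same order.

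Lum stood at 196, 173 and 202 FPKM in WAT day 4 control and at 18.8, 17.8 and 19.4 FPKM in BAT day 4 control. The groups did not overlap, and the difference on the log2(FPKM + 1) scale was -3.26 (SE 0.19, adjusted p = 2.52e-07, limma), a 10.1-fold lower mean. With EGCG on day 4 it stood at 57.2, 71.7 and 56.6 FPKM in WAT and at 4.47, 7.83 and 6.93 FPKM in BAT, with a difference of -3.23 (SE 0.19, adjusted p = 2.21e-07, limma). On day 8 Lum was at 107, 80.7 and 81.3 FPKM in WAT control and at 2.68, 3.03 and 2.89 FPKM in BAT control. These are the values that led to its choice, and the ratio of the means was 32.8. On day 8 with EGCG it was at 37.6, 43.1 and 12.4 FPKM in WAT and 1.46, 1.49 and 1.23 FPKM in BAT. In replicates 1 and 2, the 4 WAT groups held the 4 highest levels of Lum, and no 2 neighbouring groups in the order of the 8 overlapped.

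Dcn was the second most abundant member in WAT. It stood at 838, 799 and 852 FPKM in WAT day 4 control against 218, 189 and 201 FPKM in BAT day 4 control. On day 8 the control values were 882, 1068 and 1034 FPKM in WAT and 157, 152 and 149 FPKM in BAT. The groups were far apart on both days, with no overlap. The difference was -2.01 (SE 0.10, adjusted p = 9.01e-08, limma) on day 4 and -2.64 (SE 0.10, adjusted p = 5.20e-09, limma) on day 8. With EGCG, the values were 792, 759.7 and 749 FPKM in WAT and 108, 131 and 122 FPKM in BAT on day 4, and 661, 679 and 229 FPKM in WAT and 79.0, 79.1 and 68.6 FPKM in BAT on day 8. The differences were -2.69 and -3.07 (SE 0.10 each). Even the third WAT day 8 EGCG library, which stood apart, held more Dcn than any BAT library.

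Ogn, at lower levels, showed a difference in the same direction. It was at 36.7, 37.0 and 30.6 FPKM in WAT day 4 control and 7.50, 7.98 and 8.43 FPKM in BAT day 4 control. On day 8 the control values were 85.2, 82.4 and 84.0 FPKM in WAT and 24.5, 25.7 and 24.6 FPKM in BAT. Neither pair of groups overlapped, and the differences were -2.12 (SE 0.10, adjusted p = 5.36e-08, limma) and -1.70 (SE 0.10, adjusted p = 9.85e-08, limma). With EGCG, Ogn was at 6.04, 7.97 and 4.70 FPKM in WAT and 1.58, 1.70 and 1.15 FPKM in BAT on day 4, and at 31.0, 31.7 and 10.3 FPKM in WAT and 7.32, 8.85 and 6.36 FPKM in BAT on day 8, with differences of -1.59 and -1.84 (SE 0.10 each, both called). Its neighbour Omd was scarce, at 1.97, 1.57 and 1.53 FPKM in WAT day 4 control and 1.07, 0.629 and 1.03 FPKM in BAT day 4 control. On day 8 Omd was at 8.59, 6.81 and 5.39 FPKM in WAT control and 3.86, 4.48 and 2.87 FPKM in BAT control. It was called lower in BAT in control cells on both days (-0.59 and -0.75, SE 0.18 each), by less than Ogn, and was not called with EGCG.

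Aspn, between Ecm2 and Omd on the chromosome, changed sides. In day 4 control cells it was at 69.5, 65.6 and 58.8 FPKM in WAT and 41.7, 49.1 and 46.1 FPKM in BAT, a difference of -0.57 (SE 0.12, adjusted p = 0.00197, limma). In day 8 control cells it was at 79.6, 57.6 and 60.4 FPKM in WAT and 103, 111 and 118 FPKM in BAT, a difference of 0.65 (SE 0.12, adjusted p = 0.000712, limma). BAT was thus lower on day 4 and higher on day 8, with no overlap on either day. With EGCG Aspn was higher in BAT on both days (1.12 and 1.02, SE 0.12 each).

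Prelp was the member that favoured BAT in control cells on both days. It was at 3.33, 3.06 and 3.34 FPKM in WAT day 4 control and 5.50, 7.02 and 8.54 FPKM in BAT day 4 control, a difference of 0.78 (SE 0.09, adjusted p = 3.27e-05, limma). In day 8 control cells it was at 70.5, 65.6 and 81.1 FPKM in WAT and 82.3, 83.0 and 107 FPKM in BAT. The difference on day 8 was only 0.28 (SE 0.09, adjusted p = 0.0236, limma). The limma call was lost without BAT day 8 control replicate 1 (adjusted p = 0.0739), BAT day 8 control replicate 2 (adjusted p = 0.0846) or WAT day 8 control replicate 2 (adjusted p = 0.119). Fmod, its neighbour, was at 6.40, 5.78 and 5.67 FPKM in WAT day 4 control and 3.95, 3.67 and 3.87 FPKM in BAT day 4 control. In day 8 control cells Fmod was at 26.1, 13.9 and 16.7 FPKM in WAT and 19.6, 21.2 and 28.8 FPKM in BAT, and the groups overlapped. The difference was -0.56 (SE 0.20, adjusted p = 0.0310, limma) on day 4, lost when any one of the 4 libraries was left out, and 0.09 (SE 0.20) on day 8, which was not called. The day 8 value was -0.34 without WAT day 8 control replicate 2 and 0.52 without replicate 1, so that its sign rested on 1 library.

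Bgn was the most abundant of the 8 in every group, and its highest and lowest group means were 1.93-fold apart. It was at 1505, 1521 and 1408 FPKM in WAT day 4 control, 1739, 1680.1 and 1678 FPKM in BAT day 4 control, 2158, 2116 and 2172 FPKM in WAT day 8 control and 1854, 1893 and 2028 FPKM in BAT day 8 control. The day 4 difference of 0.18 (SE 0.05, adjusted p = 0.0124, limma) is close to the median over all tested genes in that comparison, 0.15, and went to 0.00 (adjusted p = 0.956) with median-ratio scaling. On day 8 it was -0.19 (SE 0.05, adjusted p = 0.00828, limma). No member other than Lum, Dcn and Ogn was lower in BAT by 2-fold or more in any of the 4 comparisons on this scale. On the other side, 3 members were called at least 2-fold higher in BAT on day 4 with EGCG, Prelp (2.43, SE 0.09), Fmod (2.38, SE 0.20) and Aspn (1.12, SE 0.12), and Aspn alone (1.02) on day 8 with EGCG. No member reached this in control cells on either day. Over all genes, such calls were made for 2.92% and 1.42% with EGCG on days 4 and 8 and for 2.16% and 4.16% in control cells.

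**Figure D2:**
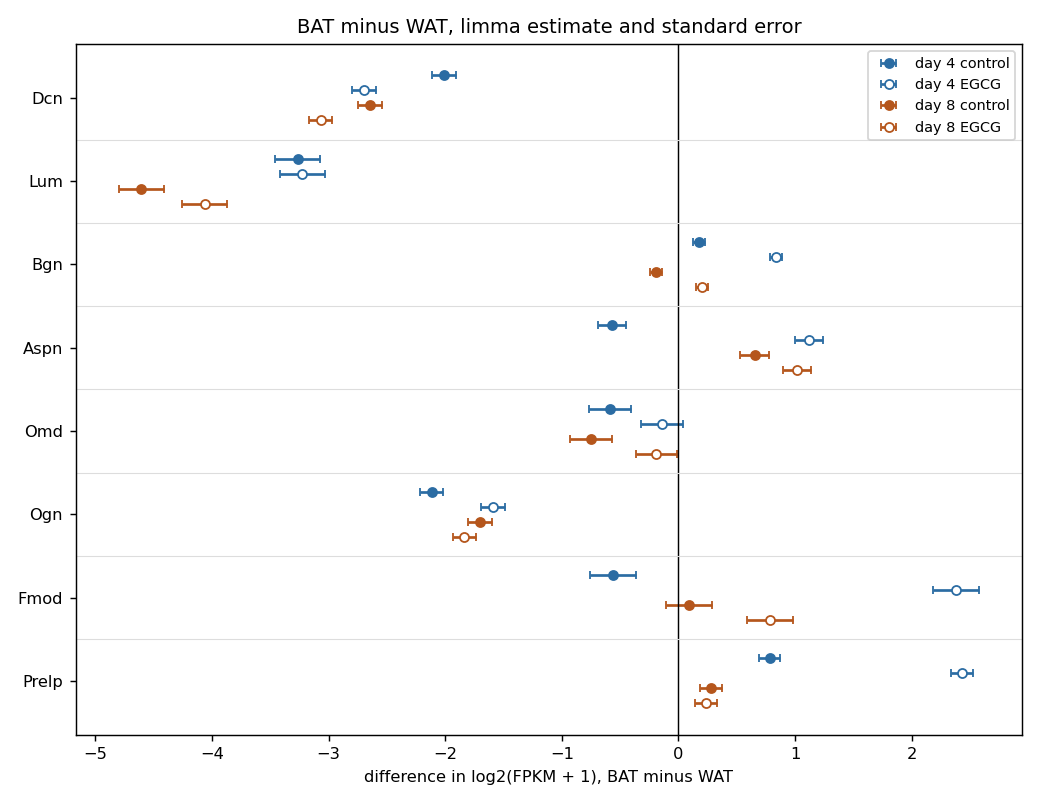
Difference in log2(FPKM + 1), BAT minus WAT, for the 8 genes (points, limma estimates from replicates 1 and 2; bars, standard error), for each day and treatment. Lum, Dcn and Ogn lie left of -1.5 in all 4 comparisons, while Bgn stays between -0.19 and 0.84 and Fmod reaches 2.38 on day 4 with EGCG. The day 8 points of Lum belong to the values that led to its choice and are a description without a test.

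In all, 8 of 8 members were called in day 4 control cells (2 higher in BAT, 6 lower), 7 of 8 on day 4 with EGCG (4 higher, 3 lower), 6 of the 7 tested in day 8 control cells (2 higher, 4 lower) and 5 of 7 on day 8 with EGCG (3 higher, 2 lower). The medians over the 7 members other than Lum were -0.57, 0.84, -0.19 and 0.20, against 0.15, 0.09, 0.05 and 0.05 over all genes tested. In replicate 3 the sign was the same for 8, 7, 8 and 7 of the 8 members, the exception being Omd in both EGCG comparisons. These counts were the same with replicate 3 rescaled by its median-ratio factors. The day 8 counts include Lum, which was not tested there. In day 4 control cells the count was 5 without WAT day 4 control replicate 1. With replicate 3 added to the fit it was 4, and 8 again once the WAT day 8 EGCG library that stood apart was left out. Median-ratio scaling moved the median of all genes in day 4 control cells from 0.15 to 0.01, and 7 members were then called. The 12 adipocyte markers summed to 6620 to 7482 FPKM in WAT day 8 control and 12376 to 12446 FPKM in BAT day 8 control, and 10 markers were higher and none was lower in BAT. The 10 progenitor markers summed to 1637 to 1728 FPKM and 713 to 720.3 FPKM in the same groups, with 7 of the 9 tested lower in BAT. Over all genes 31.6% were called higher and 22% lower in BAT in day 8 control cells. On day 4 the progenitor sums of the control groups were 612 to 644 FPKM in WAT and 619 to 702 FPKM in BAT. The part of cell makeup in the depot differences was not tested, and in such bulk RNA fewer cells of a type and less RNA per cell cannot be told apart.

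Neighbouring genes did not all differ in one direction. On chromosome 10 Dcn and Lum were both lower in BAT, and Kera, which stayed under the filter and was not tested, was at 0.763, 0.913 and 0.992 FPKM in WAT day 4 control (77, 77 and 32 reads) and 0.0632, 0.0678 and 0.151 FPKM in BAT day 4 control (5, 6 and 5 reads). On day 8 Kera had at most 4 reads in any library. On chromosome 13 Ogn was lower in BAT in day 8 control cells while Aspn and Ecm2 were higher (Ecm2 0.71, SE 0.12, adjusted p = 0.000371, limma). Ecm2, a matrix protein related to the family, was at 1.53 and 1.56 FPKM in WAT and 3.51 and 2.83 FPKM in BAT there.

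**Figure D3:**
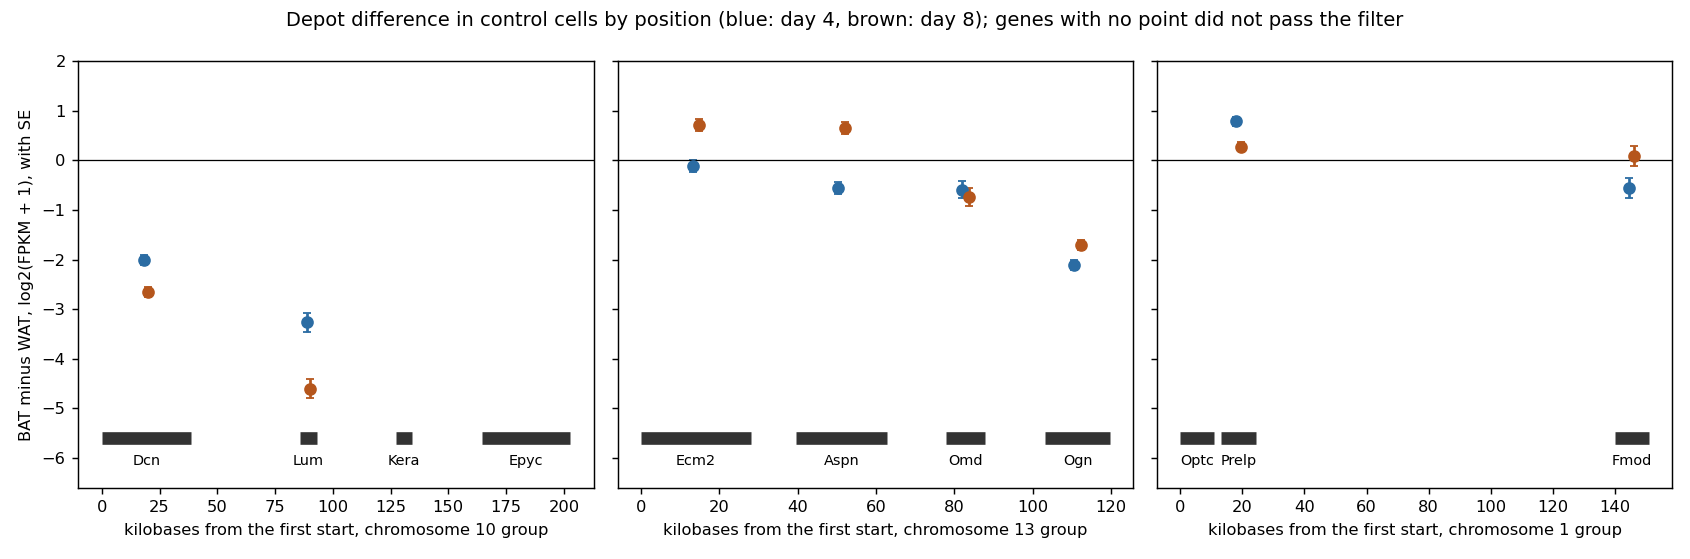
BAT minus WAT difference in log2(FPKM + 1) (points with standard error; blue day 4 control, brown day 8 control) against distance in kilobases from the first start of each gene group, with gene extents as dark bars. On chromosome 10 Dcn and Lum lie at -2.01 or lower on both days, the day 8 value of Lum being a description without a test, while on chromosome 13 the day 8 values run from 0.71 for Ecm2 to -1.70 for Ogn.

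The depot difference was compared between days in control cells by an interaction, for which 40% of all tested genes were called. For Dcn the difference was more negative on day 8 than on day 4 by 0.64 on the log2 scale (interaction -0.64, SE 0.14, adjusted p = 0.00455, limma). Aspn moved the other way (1.22, SE 0.17, adjusted p = 0.000241, limma), and Bgn (-0.37), Prelp (-0.51) and Ogn (0.41) were called with smaller values, Ogn's call being lost when any single library of the 4 groups was left out. With replicate 3 added to the fit 1 member was called, and 5 without the library that stood apart. For Lum, which was not tested, the value was -1.34 (SE 0.27).

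The second comparison asked what EGCG did to each gene within a depot and day. Each control group serves here and in the depot comparisons, so these share libraries. On day 4, 6 of the 8 members were called in WAT, all lower, and all 8 in BAT, 3 higher and 5 lower; over all genes 53.7% and 48.5% were called, 34.4% and 27.9% higher and 19.3% and 20.6% lower. In WAT, 3.06% of genes were called lower by 2-fold or more, and 5 members were among them. In BAT it was 2.75%, with 3 members. The medians over the 8 members were -1.40 in WAT and -0.80 in BAT, and 0.09 and 0.03 over all genes.

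On the log2(FPKM + 1) scale Aspn fell most on day 4 in both depots. It went from the control values of 69.5, 65.6 and 58.8 FPKM to 3.94, 4.21 and 3.45 FPKM in WAT and from 41.7, 49.1 and 46.1 FPKM to 9.83, 10.3 and 8.86 FPKM in BAT. The change was -3.75 in WAT (SE 0.12, adjusted p = 1.06e-09, limma) and -2.07 in BAT (SE 0.12, adjusted p = 1.02e-07, limma). The ratio of control to EGCG means was 16.6 in WAT and 4.52 in BAT, and the interaction of 1.69 was called (SE 0.17, adjusted p = 3.72e-05, limma; 28.1% of all genes were called). In BAT the mean of Ogn (7.74 to 1.64 FPKM) fell by a larger ratio than that of Aspn. So did the mean of the scarce Omd (0.850 to 0.0277 FPKM), but it rested on 2 reads in each of EGCG replicates 1 and 2. In replicate 3 Omd fell from 0.0525% to 0.0133% of the summed FPKM of the 8 genes. Aspn fell there from 2.34% to 0.368%, a larger ratio than that of Omd. On the log2(FPKM + 1) scale Ogn fell by 2.25 in WAT and by 1.73 in BAT (SE 0.10 each). Lum fell by 1.51 and by 1.47 (SE 0.19 each), with an interaction for Lum of 0.04 (SE 0.27, adjusted p = 0.935, limma). The difference between depots in the fall of Lum was smaller than its standard error. Omd was left with 14, 5 and 5 reads in WAT day 4 EGCG (0.204, 0.0689 and 0.137 FPKM) and 2, 2 and 9 reads in BAT day 4 EGCG, and it was called lower in both depots.

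Fmod and Prelp rose with EGCG in BAT on day 4, while Fmod fell in WAT. Fmod went from 6.40, 5.78 and 5.67 FPKM to 0.937, 0.818 and 0.970 FPKM with EGCG in WAT, and from 3.95, 3.67 and 3.87 FPKM to 8.62, 8.96 and 7.67 FPKM in BAT. It thus fell in WAT (-1.92, SE 0.20, adjusted p = 9.09e-06, limma) and rose in BAT (1.03, SE 0.20, adjusted p = 0.00111, limma), with an interaction of 2.94 (SE 0.28, adjusted p = 2.39e-05, limma). Prelp was at 2.78, 2.54 and 2.96 FPKM with EGCG in WAT, a change of -0.20 that was not called (SE 0.09, adjusted p = 0.0902, limma). In BAT Prelp rose to 18.8, 18.6 and 20.8 FPKM, by 1.45 (SE 0.09, adjusted p = 1.86e-07, limma), and the interaction of 1.65 was called (SE 0.13, adjusted p = 6.60e-06, limma). Prelp and Fmod are neighbours on chromosome 1.

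Dcn and Bgn, both of class I, differed between depots as well. Dcn was not called with EGCG in WAT on day 4 (-0.08, SE 0.10, adjusted p = 0.546, limma) and fell in BAT (-0.76, SE 0.10, adjusted p = 6.75e-05, limma; interaction -0.69). Bgn was at 1297, 1351 and 1312 FPKM with EGCG in WAT and 2401, 2332 and 2236 FPKM in BAT on day 4. It rose in BAT by 0.47 (SE 0.05, adjusted p = 1.43e-05, limma), while its value in WAT of -0.19 turned to 0.09 with quantile normalization. The interaction for Bgn was 0.66, and for Ogn 0.52. With replicate 3 added to the fit 3 interactions were called on day 4, those of Aspn, Fmod and Prelp, and 6 without the library that stood apart.

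**Figure D4:**
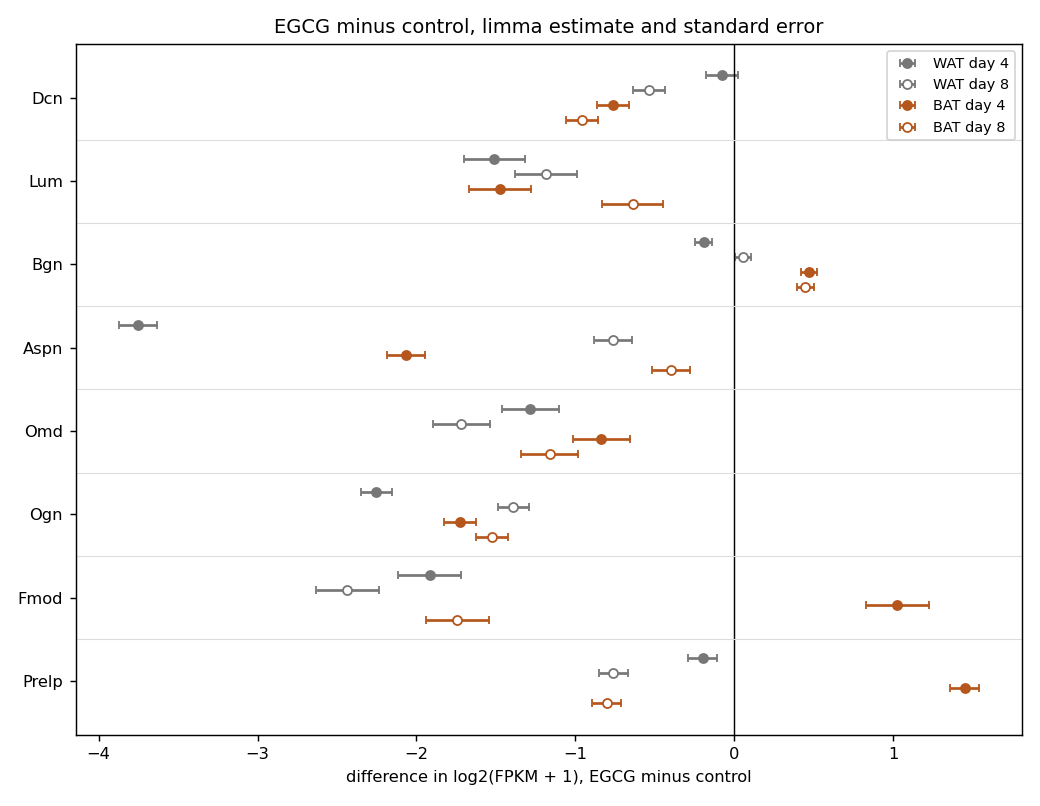
Difference in log2(FPKM + 1), EGCG minus control (points, limma estimates from replicates 1 and 2; bars, standard error), by depot and day. Aspn falls furthest in WAT on day 4 (-3.75), Fmod and Prelp lie right of 1 only in BAT on day 4, and on day 8 all members except Bgn lie below 0 in both depots. The day 8 points of Lum are a description without a test.

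On day 8 no member was called in opposite directions in the depots. In WAT 6 of 7 tested members were called, all lower, and in BAT all 7, with 6 lower and Bgn higher; over all genes 63.6% and 72.6% were called, 44.7% and 46.5% higher and 18.9% and 26.1% lower. Fmod was at 2.79, 2.65 and 0.984 FPKM with EGCG in WAT and 4.91, 5.92 and 6.22 FPKM in BAT, and it fell by 2.44 and by 1.74 (SE 0.20 each). Ogn fell by 1.39 and by 1.53, Omd by 1.72 and by 1.16, Prelp by 0.76 and by 0.80, and Dcn by 0.53 and by 0.96. Prelp stood at 37.7, 41.8 and 17.9 FPKM with EGCG in WAT and 44.3, 49.8 and 59.9 FPKM in BAT.

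Aspn stood closer to its control on day 8 than on day 4, a difference between days that was not tested. With EGCG on day 8 it was at 41.4, 37.8 and 12.7 FPKM in WAT and 81.0, 81.2 and 70.0 FPKM in BAT, a change against the control of -0.76 and -0.40 (SE 0.12 each). The call in BAT was lost without BAT day 8 control replicate 2 (adjusted p = 0.0652, limma). Bgn stood at 2150.1, 2286 and 849 FPKM in WAT and 2564, 2547 and 2477 FPKM in BAT. Its change of 0.05 in WAT was not called and turned to -0.15 with median-ratio scaling, and its rise of 0.45 in BAT was 0.24 with that scaling. The median over all genes was 0.17 in both depots, and 0.00 and 0.01 with that scaling. For Lum, not tested, the changes were -1.19 and -0.64 (SE 0.19 each). Interactions were called for Dcn (-0.42) and Bgn (0.39) and for 39.2% of all genes. With no filter on low values both limma calls were lost (adjusted p = 0.0767 for Dcn and 0.0573 for Bgn). With replicate 3 added to the fit, including the library that stood apart, the Dcn interaction changed sign, from -0.42 to 0.0728 on the log2 scale. The call for Dcn was lost when any one library of these groups was left out other than WAT day 8 control replicate 2, without which 4 members were called, and 1 was called without BAT day 8 EGCG replicate 1.

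All 12 adipocyte markers were called lower with EGCG in both depots on both days. For this and the counts below, 34.4% (WAT) and 27.9% (BAT) of all genes were called higher on day 4. On day 8 it was 44.7% and 46.5%. Lower calls were made for 19.3% and 20.6% on day 4 and for 18.9% and 26.1% on day 8. The sum of the adipocyte markers went from 4015 to 4437 FPKM in control to 1157 to 1207 FPKM in WAT on day 4, from 6975 to 8100.1 FPKM to 1697 to 1769 FPKM in BAT on day 4, from 6620 to 7482 FPKM to 674 to 736 FPKM in WAT on day 8, and from 12376 to 12446 FPKM to 526 to 539 FPKM in BAT on day 8. All 4 smooth muscle markers were called higher with EGCG in BAT and lower in WAT on day 4. Their sum went from 93.9 to 119 FPKM to 674 to 831 FPKM in BAT and from 154 to 180 FPKM to 75.5 to 77.0 FPKM in WAT. On day 8, 3 of the 4 were higher and 1 was lower in BAT, where the sum went from 386 to 451 FPKM to 1311 to 1471 FPKM, and 2 were higher and 2 lower in WAT. All 5 endothelial markers were higher with EGCG on day 4 in both depots, their sum going from 13.9 to 14.8 FPKM to 34.3 to 35.7 FPKM in WAT and from at most 13.5 FPKM to 35.1 to 38.3 FPKM in BAT, and on day 8 it was 3 of 5 in WAT and 5 of 5 in BAT. Of 5 tested macrophage markers, 4 in WAT and 3 in BAT were higher on day 4, and all 5 were lower on day 8 in both depots. Both tested mesothelial markers, Msln and Krt19 of 5 listed, were higher in all 4 comparisons. Among those not tested, mean Wt1 went down on day 8, from 0.776 to 0.0697 FPKM in BAT and from 0.578 to 0.189 FPKM in WAT. On day 4 mean Wt1 went from 0.0800 to 0.368 FPKM in WAT and from 0.210 to 0.204 FPKM in BAT. Lrrn4 had 37 and 29 reads in BAT day 8 control (replicates 1 and 2) and 0 with EGCG. Of 4 tested skeletal muscle markers, 4 were higher in WAT and none was called in BAT on day 4, and 1 was higher in WAT and 2 were lower in BAT on day 8. Of 6 tested tendon, cartilage and bone markers, 2 were higher and 1 was lower in WAT and 4 were higher in BAT on day 4, and 4 were higher in WAT, 3 higher in BAT and 2 lower in each on day 8. The sum of the 10 progenitor markers went from 612 to 644 FPKM in control to 764 to 787 FPKM with EGCG in WAT on day 4. In BAT on day 4 it went from 619 to 702 FPKM to 805 to 859 FPKM. In BAT on day 8 it went from 713 to 720.3 FPKM to 864 to 879 FPKM. It went down in WAT on day 8, from 1637 to 1728 FPKM to 1242 to 1250.5 FPKM. The part of these markers' cells in the changes of the 8 genes was not tested.

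The third comparison, day 8 against day 4, showed which members rose with time in culture. Prelp rose most in control cells, from 3.33, 3.06 and 3.34 FPKM to 70.5, 65.6 and 81.1 FPKM in WAT and from 5.50, 7.02 and 8.54 FPKM to 82.3, 83.0 and 107 FPKM in BAT. The change was 4.04 in WAT (SE 0.09, adjusted p = 1.12e-10, limma) and 3.53 in BAT (SE 0.09, adjusted p = 1.21e-10, limma), or 21.3-fold and 13.2-fold in the means. With EGCG it rose by 3.48 in WAT and by 1.28 in BAT.

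Ogn, Omd and Fmod also rose in control cells of both depots: Ogn by 1.16 in WAT and 1.58 in BAT, Omd by 1.65 and 1.49, and Fmod by 1.50 and 2.15. In WAT 5 of 7 tested members rose and none fell, and in BAT 6 rose and Dcn fell (-0.39, SE 0.10, adjusted p = 0.00453, limma; -0.22 and not called with median-ratio scaling, adjusted p = 0.0798). The 6 include Bgn (0.13, SE 0.05), whose limma call was lost with a replicate block (adjusted p = 0.0521) and whose sign turned with quantile normalization (-0.12). Over all genes 61% and 69.2% were called, 27.7% and 28.7% higher and 33.2% and 40.4% lower. Aspn rose in BAT (1.22, SE 0.12, adjusted p = 2.48e-06, limma) and not in WAT (0.01, SE 0.12, adjusted p = 0.975, limma). Lum had lower day 8 than day 4 values in all 4 conditions (-0.98 in WAT control, -2.32 in BAT control, -0.66 in WAT EGCG and -1.49 in BAT EGCG, SE 0.19 each, no test).

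With EGCG, 6 of 7 members rose in WAT, and 4 rose and 2 fell in BAT, against 59.5% and 58% of all genes called, 31.8% and 29.7% higher and 27.7% and 28.2% lower. Aspn rose by 3.00 in WAT and by 2.89 in BAT from its low day 4 values. Fmod was the member that went opposite ways, up by 0.99 in WAT and down in BAT (-0.61, SE 0.20, adjusted p = 0.0190, limma). That fall in BAT was lost without either BAT day 4 EGCG library or without BAT day 8 EGCG replicate 1.

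Summed over the 8 genes, FPKM came to 2606 to 3490.2 in WAT control libraries of replicates 1 and 2 and to 1955 to 2293 in BAT control ones. With EGCG the mean sums were 2179 FPKM in WAT and 2532 FPKM in BAT on day 4, the reverse order, and 3043 and 2779 FPKM on day 8. The shares and ratios that follow are of control groups. Bgn made up 57.5% ± 1.2 (SD, n = 2) of the sum over the 8 genes in WAT day 4 control and 85.7% ± 0.4 in BAT day 4 control. Dcn made up 31.1% ± 0.6 and 10.2% ± 0.8, and Lum 7.01% ± 0.51 and 0.917% ± 0.007. On day 8 the control shares of Dcn were 28.2% ± 3.4 in WAT and 6.80% ± 0.24 in BAT. The ratio of Dcn to Lum FPKM was 4.28, 4.61 and 4.21 in WAT day 4 control, 11.6, 10.6 and 10.4 in BAT day 4 control, 8.26, 13.2 and 12.7 in WAT day 8 control and 58.4, 50.2 and 51.5 in BAT day 8 control. Within a day, BAT control cells thus held less of both than WAT control cells and relatively more Dcn than Lum.

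**Figure D5:**
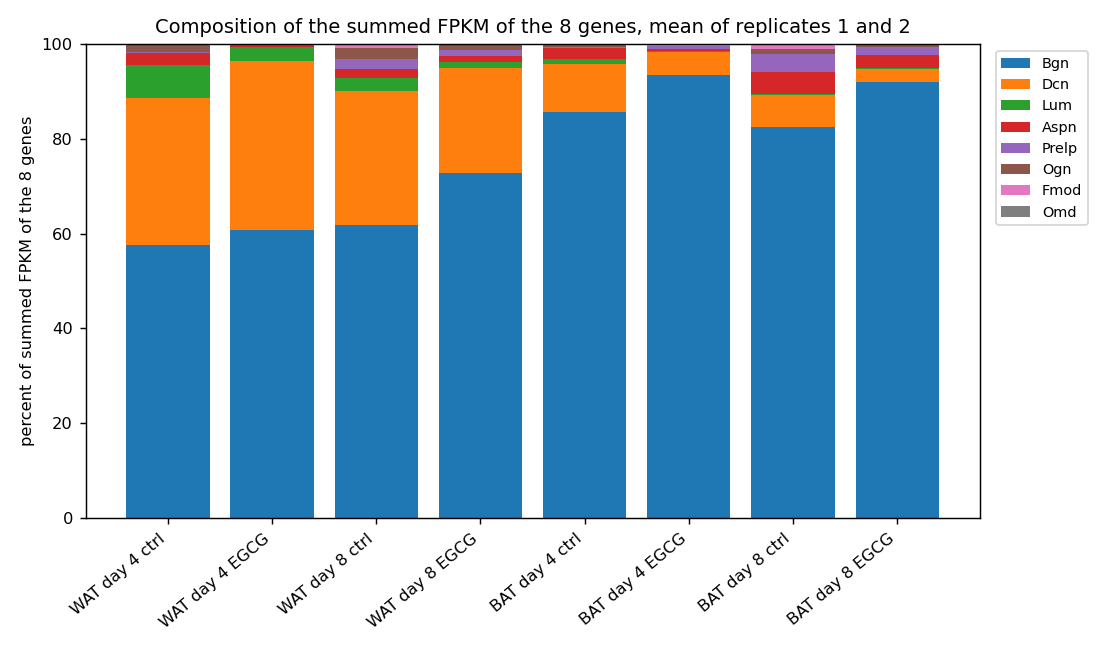
Share in percent of the summed FPKM of the 8 genes taken by each gene, mean of replicates 1 and 2, by group. Bgn takes 57.5% to 72.9% in the WAT groups and 82.5% to 93.5% in the BAT groups, and Dcn 22.0% to 35.6% and 2.84% to 10.2%.

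Over the 8 group means of log2(FPKM + 1), the 5 genes most like Lum among 10200 ranked were Gdf10 (Pearson r = 0.968), Gja1 (0.957), Dcn (0.950), Sp3 (0.941) and Dpt (0.939). Gdf10 encodes a TGF-beta family ligand, Gja1 the gap junction protein connexin 43, Sp3 a transcription factor, and Dpt dermatopontin, a matrix protein that binds decorin. The next relative was Ogn at 0.528, followed by Omd at 0.148, while Aspn (-0.181), Fmod (-0.259), Prelp (-0.514) and Bgn (-0.583) were below 0. The 8 points share depot and day, and include the values that led to Lum's choice, so this is a description. Gdf10 had means of 193 and 48.0 FPKM in WAT and BAT day 4 control and 71.8 and 9.24 FPKM on day 8. Dpt had means of 206 and 99.5 FPKM on day 4 and 305 and 67.6 FPKM on day 8. A high r does not mean a difference as large as that of Lum. In the same groups Sp3 had means of 33.8 and 28.1 FPKM on day 4 and 30.8 and 25.7 FPKM on day 8. Gja1 had means of 108 and 67.8 FPKM on day 4 and 106 and 29.2 FPKM on day 8.

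Of 9 further genes of the family or related to it, 4 passed the filter (Tsku, Podn, Podnl1 and Ecm2), and Kera, Epyc, Optc, Chad and Nyx did not. Podn, which encodes podocan, was at 80.7, 69.7 and 70.4 FPKM in WAT day 8 control and 44.8, 44.4 and 47.8 FPKM in BAT day 8 control, lower in BAT by 0.74 on the log2 scale (log2 difference -0.74, SE 0.10, adjusted p = 5.56e-05, limma). It was also lower in BAT in day 4 control cells (-0.37) and on day 8 with EGCG (-1.28), but higher in BAT on day 4 with EGCG (0.41, SE 0.10, adjusted p = 0.00403, limma). With EGCG it fell in WAT on day 4 (-0.42) and on day 8 (-1.18), and in BAT it rose on day 4 (0.36) and fell on day 8 (-1.73, SE 0.10 each). Tsku, the gene of tsukushi, which binds BMP proteins, went the other way between depots in control cells. It was at 17.3, 17.0 and 19.0 FPKM in WAT day 8 control and 44.1, 40.2 and 38.6 FPKM in BAT day 8 control (1.25, SE 0.06, adjusted p = 1.69e-08, limma). It rose with EGCG in WAT on day 4 from 11.3, 11.5 and 11.1 to 26.4, 24.8 and 26.9 FPKM. Podnl1 was called in no depot comparison.

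The partners of the family were counted from lists of collagens and of the enzymes that make and cut the proteoglycans. In day 8 control cells, 9 of 13 tested collagens (chains of fibrils, of the fibril surface and of collagen VI, which forms beaded microfilaments) were lower in BAT and 3 higher, with a median of -1.05 against 0.05 over all genes; 22% of all genes were called lower and 31.6% higher. Col3a1, a chain of fibrils in soft tissue, was lowest (-1.77, means of 5517 and 1580.2 FPKM in WAT and BAT), and Col12a1, which sits on the fibril surface, highest (0.90). Of 11 processing genes, 10 were lower and 1 was higher. Mmp3, stromelysin, which cuts decorin, was at a mean of 426 FPKM in WAT and 8.70 FPKM in BAT (-5.41, SE 0.21, adjusted p = 5.31e-09, limma), and Tll1, a protease of the BMP1 group, was higher by 0.31. Among 17 ligands and receptors, 9 were lower (Egfr -1.18, a receptor that decorin binds) and 3 higher (Bmp4 1.49). Among 15 genes of chondroitin and dermatan sulfate synthesis 7 were lower (Chst11 -0.88) and 3 higher (Chst15 1.02). Linker genes gave 2 and 2 of 6 (B3galt6 -0.35, Fam20b 0.28), and keratan sulfate genes 1 and 1 of 4 (B4galt4 -0.41, Chst1 0.34).

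With EGCG, collagens and the enzymes of the sugar chains went different ways on day 8. In BAT 9 of 13 collagens fell and 2 rose (Col6a1 -1.61, Col12a1 0.78), with a median of -0.48, while 13 of 15 chondroitin and dermatan sulfate genes rose and 1 fell, with a median of 0.69 against 0.17 over all genes. Csgalnact1, which starts the chondroitin chain, rose by 2.12 and Chst15, a sulfotransferase, fell by 1.84. Over all genes 46.5% rose in this comparison. Of 6 linker genes 5 rose (B4galt7 1.22) and Xylt2 fell by 0.42. Of 17 ligands and receptors 12 rose (Cd44 2.65) and Met fell by 0.66, and of 11 processing genes 6 rose (Mmp14 1.93) and 2 fell (Htra1 -1.29). Keratan sulfate genes split 2 and 2 (B4galt4 0.95, Chst1 -0.69). In WAT on day 8, 10 of 13 collagens fell and 2 rose, with a median of -1.11 (Col6a1 -1.62, Col12a1 0.91), and 9 of 15 chondroitin and dermatan sulfate genes rose and 2 fell (Csgalnact1 2.05, Chst15 -0.71). Over all genes 44.7% rose and 18.9% fell there, with a median of 0.17.

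On day 4 with EGCG the collagens also fell more often than they rose, 8 against 2 of 13 in WAT (Col14a1 -1.35, Col12a1 1.25) and 10 against 3 in BAT (Col6a3 -1.07, Col12a1 1.10), with medians of -0.57 and -0.49. Over all genes 19.3% and 20.6% were called lower there, and 34.4% and 27.9% higher. In WAT 7 of 15 chondroitin and dermatan sulfate genes fell and 3 rose (Chsy3 -1.14, Csgalnact1 0.88), and in BAT 7 rose and 2 fell (Chsy3 -0.86).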

How the data were processed

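The authors deposited FPKM values for 37310 GENCODE vM1 genes in 2 separately scaled tables, replicates 1 and 2 in one and replicate 3 in the other. Per the submitters' processing notes, reads were checked with FastQC 0.11.9, aligned to mm9 with HISAT2 2.2.0 and counted with HTSeq 0.11; whether strand was used is not given in the sources used here. Whole reads were recovered from FPKM and gene length for 100% of values (tolerance 0.01).

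Genes with at least 1 FPKM in at least 2 of the 16 libraries of replicates 1 and 2 (14095) were fitted with limma 3.58.1 in R 4.3.3 on log2(FPKM + 1), with 1 mean per group and a trended variance. This scale understates changes of low genes. Adjusted p-values are Benjamini-Hochberg values over all genes within a comparison, called under 0.05. Replicate 3 served for direction. The script was tested on simulated data. The 8 members, the other lists and the named genes (all members, the related genes, the called genes with the most negative and most positive change of each list in a comparison, and the 5 genes most like Lum) were chosen with earlier results of these data known, and no p was adjusted over a list alone. Promoter sequences came from RefSeq (GRCm38.p6), and no coordinates were converted between builds.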

Additional observations from a re-analysis of the deposited data

Results flagged for a closer look

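For 13 results the change differed between WAT and BAT by a limma interaction (BAT change minus WAT change on the log2 scale, replicates 1 and 2, Benjamini-Hochberg adjusted over 14095 genes). In the order below, 5 of 7, 6 of 8 and 2 of 7 tested members were called. Over all genes tested, 40%, 28.1% and 39.2% were called in the same interactions.

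The change from day 4 to day 8 in control cells differed for Aspn (1.22, adjusted p = 0.000241), Ogn (0.41, adjusted p = 0.0363), Bgn (-0.37, adjusted p = 0.00219), Prelp (-0.51, adjusted p = 0.00956) and Dcn (-0.64, adjusted p = 0.00455). Ogn's call there was lost when any single library of the groups compared was left out. The change with EGCG on day 4 differed for Fmod (2.94, adjusted p = 2.39e-05), Aspn (1.69, adjusted p = 3.72e-05), Prelp (1.65, adjusted p = 6.60e-06), Bgn (0.66, adjusted p = 6.89e-05), Ogn (0.52, adjusted p = 0.0173) and Dcn (-0.69, adjusted p = 0.00454). The change with EGCG on day 8 differed for Bgn (0.39, adjusted p = 0.00128) and Dcn (-0.42, adjusted p = 0.0355). Both calls were lost with no filter on low values (adjusted p = 0.0573 and 0.0767, limma). With both tables, which adds the library that stood apart, the Dcn interaction changed sign, from -0.42 to 0.0728 on the log2 scale.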

How the results depend on the processing

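Over all alternatives, 193 counts of called members stayed within 1.5 times the reported count, 12 were lower and 2 higher. Of the values of single members 33 gained a call, 87 lost one, 6 changed sign with a call before or after, and 10 untested values moved. The other 1520 kept their call or, for Lum without a test, shifted little against the standard error. Sign changes called neither before nor after were counted within the 1520. With no filter on low values, the interaction of day and depot was called for 3 members and that of EGCG and depot on day 8 for 0 (limma, Bgn adjusted p = 0.0573 and Dcn adjusted p = 0.0767). With both tables, 4 members were called between depots in day 4 control cells, 1 for the interaction of day and depot and 3 for that of EGCG and depot on day 4; leaving out WAT day 8 EGCG replicate 3, an alternative chosen after seeing the data, gave 8, 5 and 6. With both tables and median-ratio scaling the interaction of EGCG and depot on day 8 was called for 4. Leaving out 1 library gave 5 to 7 members between depots in day 4 control cells, 7 on day 4 with EGCG, 5 to 7 in day 8 control cells and 4 on day 8 with EGCG; 5 to 6, 8, 6 and 6 to 7 for EGCG in WAT and BAT on day 4 and in WAT and BAT on day 8; and 4 to 5, 5 to 6 and 1 to 4 for the interactions of day, EGCG on day 4 and EGCG on day 8.

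Sign changes are listed here for values called before or after. With EGCG in WAT, Bgn turned on day 8 (-0.15 with median-ratio scaling, -0.18 with both tables and that scaling) and on day 4 (0.0865, quantile normalization). From day 4 to day 8 in BAT control Bgn turned as well (-0.12, quantile normalization). The interaction of EGCG and depot on day 8 turned for Dcn (0.0728, both tables). Fmod between depots in day 8 control cells was -0.34 and 0.52 without WAT day 8 control replicates 2 and 1. The cause was not tested. Of all genes called, the share that was higher went with median-ratio scaling from 74.3% to 50.6% between depots in day 4 control cells and from 67.6% to 54.8% with EGCG on day 4, from 64.1% to 47.0% and from 70.3% to 50.6% for EGCG in WAT on days 4 and 8, from 64.0% to 51.0% in BAT on day 8, and from 41.5% to 55.3% from day 4 to day 8 in BAT control; Lum, Dcn and Ogn kept their signs between depots with that scaling.

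Same-numbered replicates did not deviate together (r of -0.0790 to 0.0810 over 28 pairs of groups), so the numbers are not taken as pairs. With a replicate block all 15 counts stayed within 1.5 times, and 1 call was lost (Bgn from day 4 to day 8 in BAT control, 0.13, adjusted p = 0.0521, limma). The untested difference of Lum between depots was -4.98 in control and -4.68 with EGCG on day 8 with a pseudocount of 0.1, and -3.57 with EGCG with both tables. Depth limits Omd and Kera, which had few reads in several groups.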

Other observations

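From day 4 to day 8 in control cells, 61% of all genes were called in WAT and 69.2% in BAT. Of 13 tested collagens 6 rose and 3 fell in WAT, and 4 rose and 5 fell in BAT. Of 11 processing genes 3 rose and 4 fell in WAT, and 4 rose and 6 fell in BAT. Htra1, a serine protease, rose by 1.81 in WAT and by 1.92 in BAT on the log2(FPKM + 1) scale, while Mmp3 fell by 3.72 in BAT and was at means of 297 and 426 FPKM on days 4 and 8 in WAT, a change that was not called (0.46, adjusted p = 0.0724, limma). Of 17 ligands and receptors 5 rose and 9 fell in WAT, and 6 rose and 8 fell in BAT. Tgfbr1, a receptor of TGF-beta, fell by 1.55 in WAT and by 1.91 in BAT.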
